A study of Homo sapiens with 15 samples.

Results

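RUNX1 binding was compared between TF-1 cells expressing wild-type RAD21 (RAD21 WT) and TF-1 cells expressing RAD21 Q592*, a form truncated by a stop codon. The members were set by the deposited peak calls and their positions: autosomal RUNX1 peaks of both lines that overlapped by at least 1 bp were joined into regions. This gave 16815 RUNX1 regions, of 123060 regions for GATA2, RUNX1 and SMC3 together. A region with a peak in both lists is called kept, one with a Q592* peak alone gained, and one with a WT peak alone lost; these words describe the lists and carry no test.

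TF-1 is a cytokine-dependent human erythroleukemia line. Both groups carried an inducible vector, for RAD21 WT or for RAD21 Q592*, and both received doxycycline (DOX) for 6 days, so the comparison is between vector inserts and not between treated and untreated cells. Whether the cells' own RAD21 was altered, and whether each line is 1 clone, is not given in the sources used here. By the labels, RUNX1 ChIP was done on 2 RAD21 WT libraries and 1 RAD21 Q592* library, out of 11 ChIP and 4 input libraries in the series. Each group is represented by 1 peak list, taken as pooled because its peaks are named as a merge, so replicate spread cannot be seen. The Q592* RUNX1 list carries that name too although the labels give it 1 library, and which libraries and inputs entered each list is not given in the sources used here. No difference between the lines given below has a test, and intervals (95%, Wilson) cover counting error only.

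RUNX1 is a Runt-domain transcription factor that binds DNA together with its partner CBFB and is needed for the formation of blood stem cells. GATA2 is a zinc-finger factor of the same stem and progenitor cells, and the pair share many enhancers there. Cohesin, to which both RAD21 and SMC3 belong, is a ring that tethers sister chromatids and forms chromatin loops; RAD21 closes the ring. A ChIP peak marks a stretch where sheared fragments pile up, its summit the point of highest pileup, and its width depends on how far the pileup stays above the local background.

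The lists were of like depth. Totals were recovered from the peak values and are given in M reads (1000000 reads). They came to 104.8 M ChIP reads for WT and 106.7 M for Q592*, with background pools of 86.7 and 78.0 M reads. They assume a genome of 2700000000 bp and fragments as long as the narrowest peak, which measured 139 bp in WT and 143 bp in Q592*. The weakest peaks had a −log10 q of 2.05 in WT and 2.01 in Q592*, and anything weaker is not in the lists. Local background, as used below, is the background that the peak caller set against a peak, divided by the genome-wide value of that list.

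The Q592* list held more RUNX1 peaks than the WT list. Its 15216 autosomal peaks were 1.62 times the 9399 of WT. Of the regions, 7753 were kept (46.1% of all regions), 7449 were gained (44.3%) and 1613 were lost (9.59%). Gained regions outnumbered lost regions 4.62 to 1. With the Q592* list shortened to its strongest peaks, at the length of the WT list, 3045 regions were gained and 3020 lost; lists of 1 length give near-equal counts by construction, so this shows only how many regions then differ. Among peaks with a −log10 q of at least 10 in both lists, 5458 regions were gained and 518 lost. A region whose WT peak lay under 10 counts as gained there, and 4726 regions were kept. Gained peaks of the full Q592* list had a median −log10 q of 9.78, so the 5458 include regions that the full lists keep. Of the WT peaks, 82.8% (82.1 to 83.6%) lay in kept regions, and of the Q592* peaks 51.0% (50.3 to 51.8%). The kept regions were simple: 7707 of 7753 held 1 peak from each list, and 46 held more.

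The kept peaks were the strong end of both lists. The median −log10 q, the deposited measure of strength, was 13.04 for kept and 5.71 for lost peaks in the WT list, and 25.2 for kept and 9.78 for gained peaks in the Q592* list. In the WT list, 56.2% of the peaks in the weakest quartile were kept (1321 of 2349) and 99.4% in the strongest (2336 of 2350). In the Q592* list these shares were 21.1% (804 of 3804) and 90.7% (3450 of 3804). Almost every strong WT peak thus had a counterpart, while 354 peaks of the strongest Q592* quartile had none. The strongest lost peak had a −log10 q of 36.5, and no lost peak reached 50. Among gained peaks the maximum was 95.9, and 51 reached 50. A −log10 q under 3 was found for 115 lost peaks (7.13%) and 167 gained peaks (2.24%). The weakest quartile of the WT list, with a −log10 q up to 6.60, held 1028 of the 1613 lost peaks. That of the Q592* list, up to 8.39, held 3000 of the 7449 gained peaks. The classes themselves depend on the calling threshold of each list. A weak peak is thus more likely to lack a counterpart in the other list. The contrasts in −log10 q and in kept shares follow at least in part from this, and cannot be read as a property of the sites. How near the threshold a site was in the list that lacks it cannot be seen.

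Peaks without a counterpart were narrower. In the WT list the median width was 231 bp for kept peaks (quartiles 182 and 304 bp) and 174 bp for lost peaks (151 and 212 bp). In the Q592* list it was 294 bp for kept peaks (233 and 371 bp) and 194 bp for gained peaks (165 and 236 bp). A wide peak meets the 1 bp overlap that sets the classes more easily. With classes set by summits within 200 bp instead, the medians were 230 bp (WT kept), 176 bp (WT lost), 294 bp (Q592* kept) and 194 bp (Q592* gained). Wide peaks were nearly all kept. In the Q592* list 1472 kept peaks (19.0%, 18.1 to 19.8%) and 121 gained peaks (1.62%, 1.36 to 1.94%) spanned more than 400 bp. In the WT list 696 kept (8.94%, 8.33 to 9.59%) and 17 lost peaks (1.05%, 0.659 to 1.68%) did so. At the other end, 169 lost peaks (10.5%) and 165 kept peaks (2.12%) had the narrowest width of the WT list.

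Gained peaks were also narrower within deciles of strength. The classes here rest on the 1 bp overlap, and the deciles were not redone with the summit rule. When the Q592* list was divided into deciles of −log10 q, gained peaks had a smaller median width than kept peaks in 10 of 10 deciles, by 16.5 to 105 bp. In the fifth decile, where the median −log10 q was 12.9 for kept and 12.8 for gained peaks, the widths were 233 bp over 624 kept and 198 bp over 898 gained peaks. The largest gap was that of the strongest decile, 396 bp over 1493 kept and 291 bp over 29 gained peaks, but strength was not matched there, with a median −log10 q of 86.5 for kept and 65.6 for gained peaks. For lost peaks the gap within deciles was smaller. It was 6 to 32 bp in the 7 deciles of the WT list with at least 20 lost peaks, with kept peaks wider in all 7. The ninth decile held 6 lost peaks with a median of 291 bp against 288 bp for kept peaks, and the tenth held none.

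**Figure D1:**
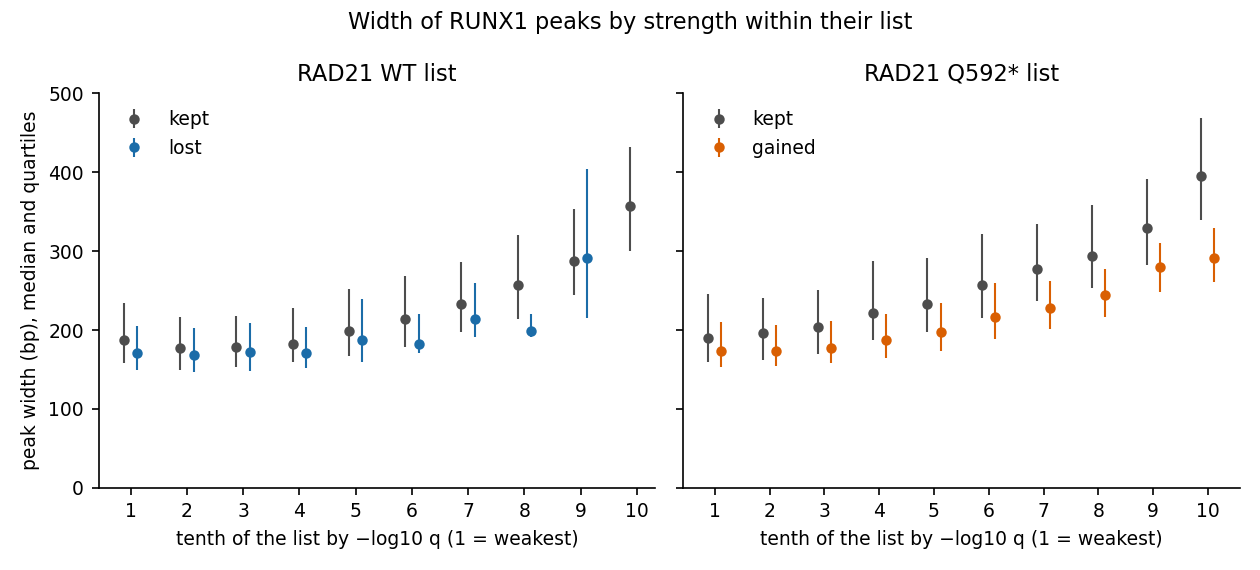
Peak width in bp (median with quartiles) by decile of −log10 q within the WT list (left) and the Q592* list (right), for kept peaks and for peaks without a counterpart. Gained peaks sit below kept peaks in 10 of 10 deciles; the lost peaks of the eighth and ninth WT deciles are 11 and 6 peaks.

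Kept regions were wider in the Q592* list than in the WT list. Over the 7707 regions with 1 peak from each list, the median width was 230 bp in WT and 294 bp in Q592*, and the median difference within a region was 55 bp. The Q592* peak was wider in 5947 regions (77.2%), narrower in 1727 and equal in 33. Both edges contributed alike: the left edge moved outward by a median of 28 bp (signed shift of -28 bp) and the right edge by 27 bp. In 4242 regions (55.0%) the Q592* peak enclosed the WT peak, and in 668 (8.67%) the reverse was true. GATA2 regions showed a like widening, from 268 to 356 bp (wider in 81.8% of 31752), and SMC3 regions a smaller one, from 318 to 349 bp (wider in 63.1% of 28353).

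The width of a kept region differed more between the lists where its signal did. The summit pileup per M ChIP reads, recovered from the deposited fold and p, was higher in Q592* at 7511 of 7707 regions (97.5%), with a median log2 ratio of 0.65. Where that ratio was 0 or less (196 regions), 51.5% of the Q592* peaks were wider. This share was 69.0% for a ratio between 0 and 0.5 (2203 regions), 80.4% between 0.5 and 1 (4563 regions) and 88.2% above 1 (745 regions). The median log2 width ratio at kept regions was 0.29.

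Summits of kept regions stayed close to their place. Pairs were formed by overlap, so a shift cannot exceed the joined width of the paired peaks. The median absolute shift between the WT and the Q592* summit was 19 bp (quartiles 9 and 38 bp), and 95% of the shifts were at most 84.7 bp. Within 50 bp lay 6532 summits (84.8%, 83.9 to 85.5%), and 243 (3.15%) moved by more than 100 bp. There was no common direction: 3832 Q592* summits lay to the right, 3746 to the left and 129 on the same base, with a signed median of 0 bp. The same measure was 20 bp for GATA2 and 16 bp for SMC3.

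The summit shift was smaller at stronger peaks. By the −log10 q of the weaker peak of a pair, the median shift was 37 bp under 5 (766 regions) and 25 bp from 5 to 10 (2247 regions). It was 19 bp from 10 to 20 (2480 regions), 15 bp from 20 to 50 (1704 regions) and 11 bp at 50 or more (510 regions). Shifts over 100 bp made up 10.97% of the weakest bin and 0.196%, a single region, of the strongest. At like strength the 3 targets were close together, with medians of 15 bp each for RUNX1, GATA2 and SMC3 between 20 and 50. Wide peaks had more large shifts: 46 of 680 regions over 400 bp wide in WT (6.76%) and 72 of 2672 under 200 bp (2.69%) moved by more than 100 bp. The overlap rule itself leaves room for larger shifts where peaks are wider.

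**Figure D2:**
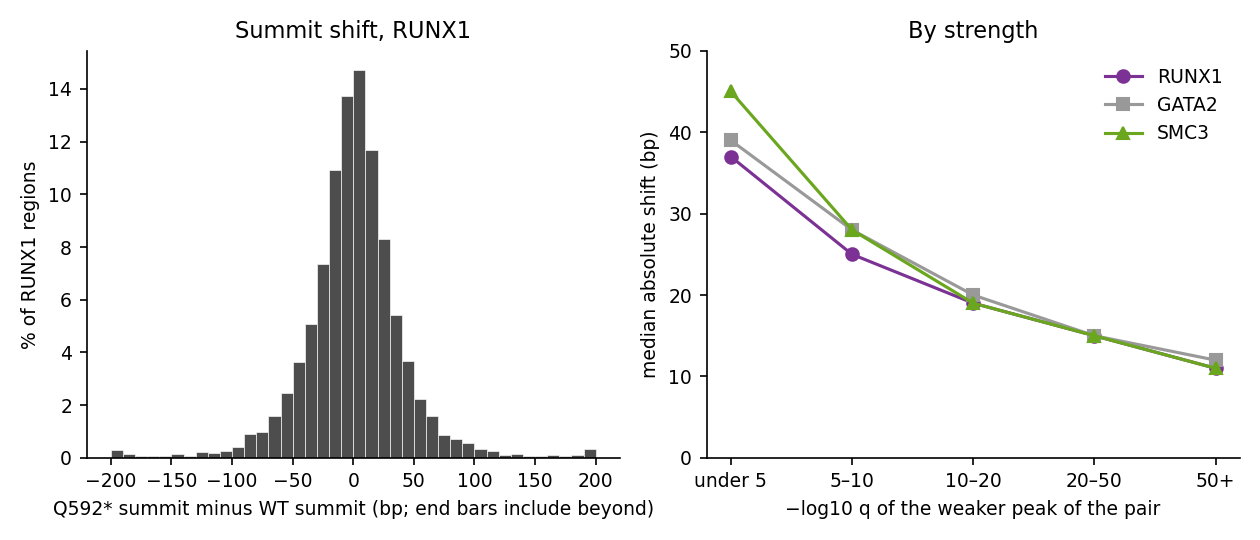
Left, percentage of the 7707 kept RUNX1 regions by the signed distance in bp from the WT to the Q592* summit, in bins of 10 bp. Right, median absolute shift in bp by the −log10 q of the weaker peak for RUNX1, GATA2 and SMC3; the RUNX1 median goes from 37 bp in the weakest bin to 11 bp in the strongest.

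The largest shifts lay in regions with a wide peak in at least 1 list, as pairing by overlap requires for shifts of this size. On chromosome 10, from 38817597 to 38818514, the summits lay 622 bp apart, the WT peak was 867 bp and the Q592* peak 275 bp wide, and the −log10 q was 14.2 in WT and 3.23 in Q592*. On chromosome 1, from 69963038 to 69963951, the Q592* summit lay 525 bp to the left (signed shift of -525 bp), although both peaks were wide (867 and 914 bp) and strong (−log10 q of 41.8 and 60.1). On chromosome 1, from 63249457 to 63250337, a WT peak of 146 bp lay inside a region with an 881 bp Q592* peak, and the shift was -405 bp.

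GATA2 was found at most kept regions and less often at the others. In Q592* a GATA2 peak overlapped 6594 of 7753 kept regions (85.1%, 84.2 to 85.8%), 4794 of 7449 gained regions (64.4%, 63.3 to 65.4%) and 814 of 1613 lost regions (50.5%, 48.0 to 52.9%). In WT it overlapped 78.2% of kept, 47.5% of gained and 59.8% of lost regions (57.4 to 62.2%). The GATA2 list was longer in Q592* (57483 autosomal peaks) than in WT (38063), so the shares of the lines rest on lists of different length. Lost regions went the other way: they had GATA2 less often in the longer Q592* list than in the shorter WT list.

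SMC3 was found at a smaller share of RUNX1 regions than GATA2. In WT an SMC3 peak overlapped 52.0% of kept regions (50.9 to 53.2%), 37.4% of lost regions (35.1 to 39.8%) and 23.8% of gained regions (22.8 to 24.7%). In Q592*, where the SMC3 list had 31878 peaks against 41215 in WT, these shares were 31.6%, 10.3% and 18.4%. At equal list lengths SMC3 overlapped 33.9% of kept regions in WT and 33.8% in Q592*, and with a −log10 q of at least 10 in every list it overlapped 25.4% of kept and 25.1% of lost regions in WT. Regions with neither GATA2 nor SMC3 in either line made up 10.4% of kept (803), 28.8% of gained (2148) and 29.1% of lost regions (469).

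The gained regions differed from the kept ones most at high strength. In the weakest quartile of the Q592* list GATA2 overlapped 80.1% of kept and 68.4% of gained regions, and in the strongest 87.7% of kept (86.6 to 88.8%) and 50.6% of gained regions (45.4 to 55.7%, 179 of 354). SMC3 in Q592* overlapped 39.6% of kept and 21.2% of gained regions in the strongest quartile. The local background moved with this: its median was 3.93 at gained and 2.66 at kept peaks of the strongest quartile, and 2.15 and 2.42 in the weakest. Strength was not matched in the strongest quartile, with a median −log10 q of 52.6 for kept and 35.5 for gained peaks. In the weakest it was 6.42 and 6.11. The parts of local background and of strength in the difference were not tested. Lost regions showed the opposite trend with strength, from 55.7% with GATA2 in WT in the weakest quartile (573 of 1028) to 76.7% in the third (92 of 120), where kept regions had 75.8%.

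**Figure D3:**
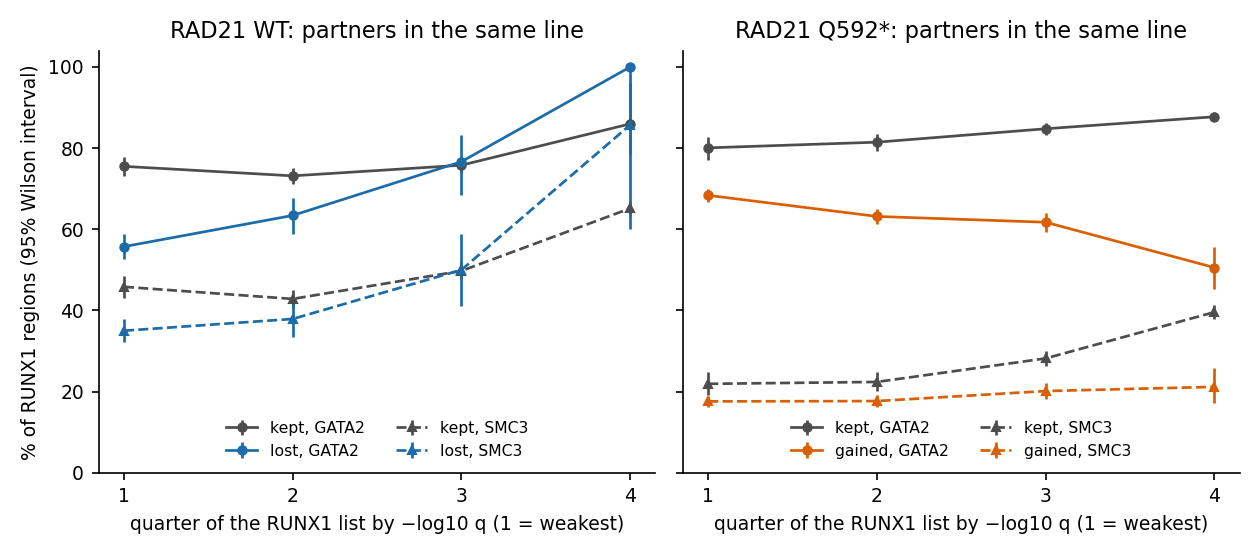
Percentage of RUNX1 regions that overlap a GATA2 peak (solid) or an SMC3 peak (dashed) of the same line, by quartile of RUNX1 −log10 q, with 95% Wilson intervals, for WT (left) and Q592* (right). The share of gained regions with GATA2 goes from 68.4% to 50.6% while that of kept regions goes from 80.1% to 87.7%; the strongest WT quartile holds 14 lost regions.

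Where RUNX1 was lost, the other factors were missing from the Q592* lists more often too. Of the WT SMC3 peaks in kept RUNX1 regions, 45.6% (1876 of 4117) had no SMC3 counterpart in Q592*, and in gained regions 39.0% (694 of 1778). In lost regions this was 73.2% (442 of 604, 69.5 to 76.6%), while it was 29.4% over all 41215 WT SMC3 peaks. These SMC3 peaks were weak ones: their median −log10 q in WT was 8.85 in kept, 8.76 in gained and 7.93 in lost regions. It was 18.4 over all WT SMC3 peaks, so the shares are not matched in strength. The order of kept and lost regions was the same in the 3 weaker quartiles of SMC3 strength. In the weakest, 68.0% of peaks in kept, 65.0% in gained and 89.0% in lost regions had no counterpart, against 76.2% of all peaks there. In the second SMC3 quartile 38.6% of peaks in kept and 76.3% of peaks in lost RUNX1 regions had no counterpart, against 38.4% of all peaks of that quartile, and in the third 6.25% and 30.8%, against 3.05%. In the strongest quartile every SMC3 peak in a lost RUNX1 region (42 of 42) had one.

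GATA2 showed a like pattern in lost RUNX1 regions, while in kept and gained ones its shares lay below that of the whole list. Of the WT GATA2 peaks, 1.29% in kept, 0.906% in gained and 23.8% in lost RUNX1 regions (227 of 955, 21.2 to 26.6%) had no counterpart in Q592*, against 13.1% over the whole list. In the weakest GATA2 quartile these shares were 12.8%, 4.87% and 62.4%, against 37.5% of all peaks of that quartile. Read from the other list, 25.7% of the Q592* GATA2 peaks in gained RUNX1 regions (1225 of 4768) had no WT counterpart, 9.10% in kept and 8.66% in lost regions, against 43.3% over the whole list. GATA2 peaks in RUNX1 regions were strong ones: the median −log10 q in Q592* was 77.3 in kept and 43.3 in gained regions and 15.2 over all GATA2 peaks. The 3 targets were profiled in the same lines, and the labels name 2 inputs for each line without assigning them to a target. These overlaps cannot be taken as independent of each other.

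Where RUNX1 and GATA2 peaks overlapped, their summits lay close together in each class. Only overlapping peaks were measured, so the overlap rule itself limits these distances. The median distance between overlapping RUNX1 and GATA2 peaks was 36 bp for kept and 46 bp for lost peaks in WT, and 33 bp for kept and 35 bp for gained peaks in Q592*. Within 50 bp lay 66.7% of the kept and 63.0% of the gained pairs in Q592*, and 62.9% of the kept and 53.3% of the lost pairs in WT. Summits of overlapping SMC3 peaks lay at larger medians, 51 to 56 bp in the 4 classes. For lost peaks the gap was small, with 46 bp for GATA2 and 52 bp for SMC3. Within 50 bp lay 48.9% of the lost pairs with SMC3. The SMC3 peaks in kept RUNX1 regions were weaker than the GATA2 peaks there. Their median −log10 q was 8.85 against 39.6 in WT, and 7.86 against 77.3 in Q592*. The distances were not matched in strength, and its part in the difference between GATA2 and SMC3 was not tested.

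Kept regions with SMC3 in both lines had the widest RUNX1 peaks of the states compared. In Q592* the median RUNX1 width was 347 bp at the 2220 kept regions with SMC3 in both lines and 242 bp at the 803 without GATA2 or SMC3 in either. The median −log10 q was 33.7 and 20.6. The states rest on an overlap of 1 bp, which a wider RUNX1 region meets more easily. The order of widths by state can follow in part from this rule. By GATA2, gained regions spanned a smaller range: 203 bp with GATA2 in both lines (3507 regions), 193 bp with GATA2 in Q592* alone (1287) and 185 bp with GATA2 in neither (2621). The median −log10 q in these 3 states was 9.11, 9.90 and 10.5, and the local background 2.03, 2.18 and 2.91. The 34 gained regions with GATA2 in WT alone had narrower peaks, 178.5 bp, and a median −log10 q of 6.97. By SMC3, gained regions with a peak in Q592* alone (299) had the widest RUNX1 peaks, 215 bp, and the highest −log10 q, 10.7. The part of the local background was not tested.

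RUNX1 peaks were more closely spaced in the longer Q592* list. The median distance from a summit to the nearest other summit was 35306 bp in WT and 24566 bp in Q592*. When the Q592* list was shortened to its strongest 9399 peaks, the length of the WT list, the distance was 41621 bp, so the order of the lines turned with the list length. Within the WT list, lost summits had nearer neighbours than kept ones, at 24820 and 37939 bp. Within the Q592* list, gained summits had farther neighbours than kept ones, at 27518 and 22246 bp.

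Between classes, lost regions lay as close to kept regions as kept regions lay to each other, while gained regions lay farther away. The median distance to the nearest kept summit was 46199 bp from kept, 45875 bp from lost and 67525 bp from gained regions. Within 12.5 kb of a kept summit lay 24.0% of kept (23.1 to 24.98%), 25.5% of lost (23.5 to 27.7%) and 18.5% of gained regions (17.7 to 19.4%). The median from gained regions to each other was 63186 bp, with 18.8% within 12.5 kb of another gained region. At equal list lengths gained regions lay a median of 154338 bp from the nearest gained and 85441 bp from the nearest kept region.

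Lost regions were often next to other lost regions, although they are the rarest class. The median distance from a lost region to the nearest other lost one was 142714 bp, against 490739 bp from kept and 696004 bp from gained regions to the nearest lost one. Within 12.5 kb of another lost region lay 335 of 1613 (20.8%, 18.9 to 22.8%), compared with 5.35% of kept and 2.89% of gained regions. A segment of chromosome 13 and places of high local background, both described below, hold part of them. Without these the share was 15.8% (220 of 1392, 13.98 to 17.8%), against 4.87% of kept and 2.67% of gained regions, and the median distance between lost regions was 219893 bp. Leaving out the chromosome 13 segment alone gave 203117 bp, and a −log10 q of at least 10, which left 518 lost regions, gave 933558 bp. The cut at a local background of 10 did not take out every dense group of lost regions. A cluster on chromosome 4 held 13 lost regions at a median background of 2.24, and one on chromosome 21 held 8 at 4.14. The part of such groups in the 15.8% was not tested.

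**Figure D4:**
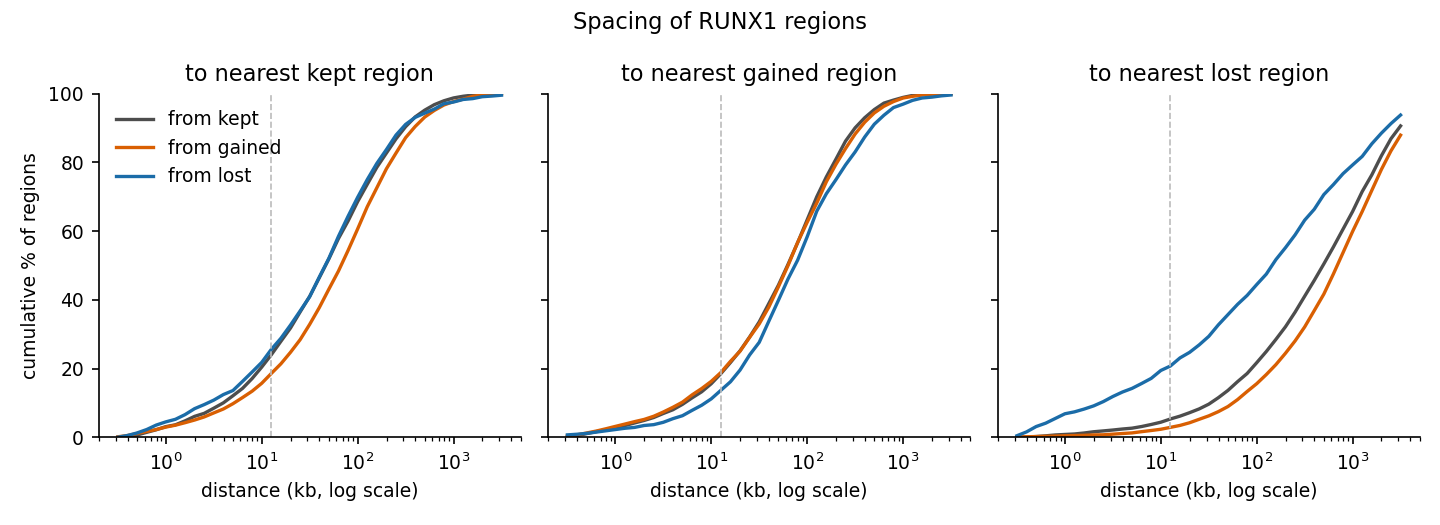
Cumulative percentage of kept, gained and lost RUNX1 regions by the distance in kb (log scale) from their summit to the nearest kept (left), gained (middle) and lost (right) summit; the dashed line marks 12.5 kb. In the right panel 20.8% of lost regions lie within that distance of another lost region, against 5.35% of kept and 2.89% of gained regions.

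Groups of neighbours were formed by joining regions whose edges lay within 12.5 kb of each other. Of 13055 groups, 10350 were single regions, 2010 were pairs and 695 were clusters of at least 3 regions. The clusters held 2445 regions, 14.5% of all, and had a median span of 11860 bp. They comprised 1184 kept, 870 gained and 391 lost regions. Both kept and gained regions were held by 433 clusters, while 81 held kept regions alone, 53 gained alone and 17 lost alone. Of all regions 46.1% were kept, 44.3% gained and 9.59% lost, so mixed clusters are common from these shares alone. No preference of kept and gained regions for each other is read from the counts. Of the gained regions, 1451 (19.5%) shared a group with a kept region, while 65.1% stood alone.

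Lost regions were the class most often clustered. Clusters held 24.2% of lost (22.2 to 26.4%), 15.3% of kept (14.5 to 16.1%) and 11.7% of gained regions (10.97 to 12.4%). Outside the chromosome 13 segment and at a local background under 10 these shares were 22.1%, 14.6% and 11.4%. That cut does not take out the clusters of lost regions with a lower median background, on chromosomes 4 and 21, described below. With group size the share of lost regions went from 8.46% of single regions to 11.02% in groups of 3, 17.3% in groups of 4, 21.4% in groups of 5 to 9 and 66.0% in the 6 groups of 10 or more. The share of gained regions went from 46.8% to 6.80% over the same sizes. Of the 103 regions in the 6 largest groups, 32.0% had a local background of 10 or more, compared with 0.754% of single regions, and the part this plays was not tested.

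More clusters were seen from the Q592* list. Of the 695 clusters, 268 held at least 3 regions with a WT peak, 544 at least 3 with a Q592* peak and 169 both. In 433 clusters Q592* had more peaked regions, in 124 WT had more and in 138 they were equal. Built from each list alone, clusters held 10.0% of the WT peaks (261 clusters) and 11.7% of the Q592* peaks (531 clusters). At equal list length the Q592* value was 6.33% (186 clusters), below that of WT.

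The largest clusters were dominated by kept and lost regions and held no gained ones. On chromosome 16, from 46385853 to 46435590, 44 regions lay within 49738 bp, of which 18 were kept and 26 lost. Their median local background was 12.4 times the genome-wide value. GATA2 peaks overlapped 43 of them in WT and 17 in Q592*, SMC3 peaks 37 and 6. On chromosome 4, from 49094756 to 49123151, 16 regions comprised 3 kept and 13 lost, at a local background of 2.24, and GATA2 overlapped 15 in WT and 2 in Q592*. On chromosome 10, from 42378494 to 42396941, 1 of 12 regions was kept and 11 were lost, at a local background of 18.6, and GATA2 overlapped 12 and 0. All 3 clusters thus had fewer peaks in the Q592* lists of all 3 targets. The next ones with a median background under 5, chosen after the values were seen, were more mixed: chromosome 13 from 91770407 to 91807524 held 2 kept, 2 gained and 7 lost regions, and chromosome 1 from 61541732 to 61606935 held 4 kept, 4 gained and 2 lost.

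The largest clusters of a single class held between 4 and 8 regions. The largest of gained regions alone lay on chromosome 3, from 195211631 to 195231388, with 7 regions, 2 of them with GATA2 in WT and 5 in Q592*. The others named by the same rule held 4 regions each, on chromosome 16 from 87888076 to 87915495 and on chromosome 12 from 49616467 to 49638213. The largest of lost regions alone lay on chromosome 21, from 10701053 to 10722693, with 8 regions, 5 with GATA2 in WT and 0 in Q592*. It was followed by chromosome 3 from 173337696 to 173351490 and chromosome 1 from 66225261 to 66237989, with 4 each at a local background of 1.27 and 1.198.

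Gained regions outnumbered lost regions on 22 of 22 autosomes, by ratios that differed widely. The ratio was lowest on chromosome 13, at 1.13 (236 gained, 208 lost), and highest on chromosome 22 (18.4, 129 gained and 7 lost), chromosome 19 (16.8, 269 and 16) and chromosome 17 (12.3, 284 and 23). Gained regions made up 60.4% of the regions on chromosome 19 and 31.9% on chromosome 13. In windows of 5 Mb with at least 20 regions, 367 of 379 had more gained than lost regions, 11 had more lost and 1 had equal numbers, and 53 had no lost region.

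The windows with most gained regions lay on chromosome 6 from 25 to 30 Mb (57 gained, 45 kept, 12 lost), chromosome 1 from 25 to 30 Mb (38, 28 and 1) and chromosome 19 from 0 to 5 Mb (36, 9 and 0). The windows with most lost regions were adjacent on chromosome 13, from 90 to 95 Mb (79 lost, 37 kept, 17 gained) and from 85 to 90 Mb (75 lost, 25 kept, 16 gained). Next came chromosome 1 from 65 to 70 Mb (36 lost, 33 gained). The segment of chromosome 13 from 75 to 100 Mb held 189 lost, 127 kept and 82 gained regions, so that 11.7% of all lost regions lay in it.

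**Figure D5:**
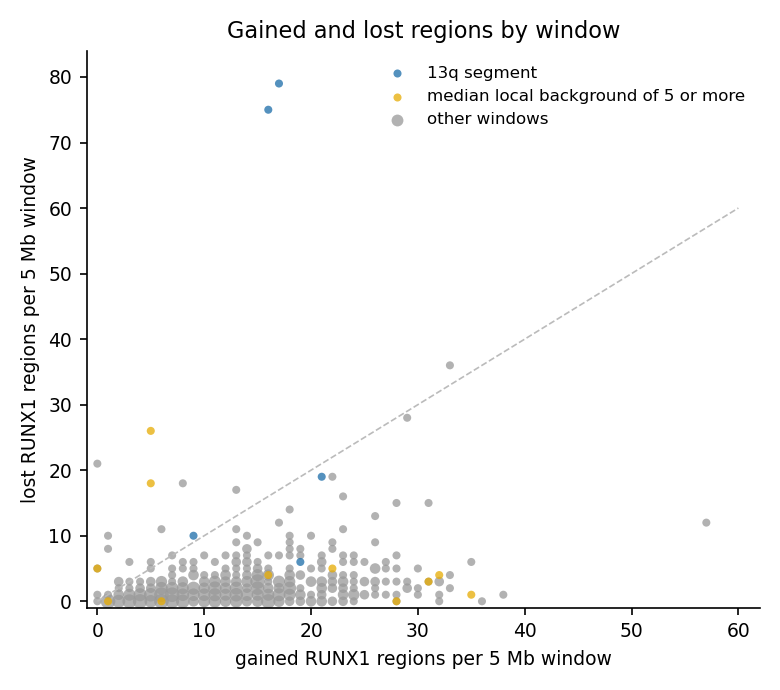
Lost against gained RUNX1 regions in each window of 5 Mb; point area increases with the number of windows at that place and the dashed line marks equal numbers. The windows from 85 to 95 Mb on chromosome 13, with 75 and 79 lost regions, stand far above the line; most others lie below it.

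Lost regions in these places differed from lost regions elsewhere. The 32 lost regions with a local background of 10 or more overlapped GATA2 in 32 cases in WT and in 1 case in Q592*, and SMC3 in 26 and 0. In the chromosome 13 segment 41.3% of the lost regions had GATA2 in WT (34.5 to 48.4%) and 25.4% in Q592*. The remaining 1392 lost regions, 86.3% of the class, had GATA2 in 61.4% (58.8 to 63.9%) in WT and 55.0% (52.3 to 57.6%) in Q592*. Their median width was 172 bp and their median −log10 q 5.91. Most lost RUNX1 regions thus lay outside both kinds of place, and 765 of these 1392 had a GATA2 peak in the Q592* list.

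The strongest regions of each class illustrate the range. The strongest gained region, on chromosome 6 from 17600395 to 17600746, had a Q592* peak of 352 bp with a fold of 10.6 over background and a −log10 q of 95.9, with no GATA2 or SMC3 peak in either line. The next, on chromosome 19 from 16999482 to 16999940, reached 89.4 at a local background of 10.7 and overlapped GATA2 in Q592* only. Of the 5 strongest gained regions, the others lay on chromosome 10 from 73508561 to 73508890, chromosome 17 from 80358744 to 80359015 and chromosome 19 from 33932155 to 33932485. Their folds were 6.30, 10.3 and 6.24.

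Of the 5 strongest lost regions, 3 belong to the clusters on chromosomes 16 and 10 described above, and a further one also lay on chromosome 10. These 4 were on chromosome 16 from 46392604 to 46392793 and from 46396384 to 46396842, and on chromosome 10 from 42598068 to 42598257 and from 42383466 to 42383757. Their local backgrounds were 8.42, 6.12, 6.05 and 12.3. The fifth, on chromosome 10 from 111827794 to 111828083, had a fold of 7.14, a −log10 q of 24.96 and a local background of 1.47. It overlapped GATA2 in both lines and SMC3 in WT only, and a kept region lay 8859 bp away.

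The strongest kept regions were called at nearly the same summit in both lists. On chromosome 3, from 167658901 to 167659894, the −log10 q was 257 in WT and 441 in Q592*, the widths 974 and 884 bp and the summit shift 6 bp. On chromosome 1, from 231596338 to 231596828, the values were 259 and 350, both peaks were 465 bp wide and the shift was 2 bp. On chromosome 10, from 96059117 to 96059675, and on the 2 further regions that were strongest in Q592* (chromosome 9 from 126817023 to 126817476 and chromosome 14 from 31528761 to 31529153), the shifts were -19, 3 and 4 bp. Of these 5 regions, 5 overlapped GATA2 in both lines and 3 overlapped SMC3 in both. The widest RUNX1 peak, 1160 bp, lay on chromosome 4 from 10182208 to 10183367 in the Q592* list, where the WT peak measured 877 bp. In the WT list the widest was 1030 bp, at the left edge of the chromosome 16 cluster, where the Q592* peak measured 395 bp.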

How the data were processed

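The members and lists described here were chosen with earlier results of these data known. The series deposited 6 pooled narrowPeak lists, called by the authors with MACS2 after Bowtie2 and Picard on hg19, per the submitters' processing notes, without stated versions. Per the labels' protocols, fixation took 10 minutes in 1% formaldehyde, and fragments averaged 200 to 400 bp. For each peak the authors deposited a fold ratio over background, a −log10 p-value and a −log10 q-value at the summit, and a score (10 times the −log10 q, not used). These rank or filter peaks within a list. Positions are on hg19, counted from 1.

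ChIP reads and local background were recovered from the deposited fold and p, to within 0.002 of the −log10 p for 100% of the peaks of both RUNX1 lists. Peaks were joined by 1 bp overlap, spacing was measured between summits, and clusters were at least 3 regions with edges within 12.5 kb. Regions named by position were the 5 strongest gained and lost, the 3 strongest kept in each list, the largest clusters, shifts and widths, and the windows with most gained or lost regions. Of each rule the text prints part. Functions were tested on simulated data. Genes, promoters and motifs need an annotation of hg19, not used here. Alternatives were other overlap rules, stitching distances and windows, stricter lists (−log10 q from 10 up), lists of 1 length, and sex chromosomes or chromosome 13 in or out. Scripts used Python 3.11.15 with scipy 1.17.1, numpy 2.4.6 and pandas 2.3.3, and figures matplotlib 3.10.9.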

Additional observations from a re-analysis of the deposited data

Results flagged for a closer look

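Chromosomes X and Y were left out of the comparisons, and RUNX1 peaks were present there as well. They formed 404 regions, of which 164 were kept, 201 were gained and 39 were lost. On X, 123 regions were kept, 175 gained and 10 lost. On Y, 41 were kept, 26 gained and 29 lost.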

How the results depend on the processing

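Each line has 1 pooled RUNX1 list, so no library was left out and the spread between libraries is unknown. No paired analysis was possible because the pooled lists carry no replicate numbers and no result comes from a test. Peaks below the threshold of a list are not in it, and counts of gained and lost regions depend on that threshold. Of 122 recomputed values, 64 stayed within 1.5 times a count or within the 95% interval of a share or median, and 58 did not; no ordering below has a test.

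With a −log10 q of at least 10 in both lists there were 4726 kept and 518 lost regions, and gained regions stayed within 1.5 times. A region whose WT peak lay under 10 then counts as gained, and one whose Q592* peak did so as lost. Median widths were then 264 (WT kept), 212 (WT lost), 328 (Q592* kept) and 229 bp (Q592* gained), the median −log10 q 19.6, 12.1, 39.1 and 15.8, and the median summit shift 16 bp. Nearest summits lay 71844 bp (WT) and 38694 bp (Q592*) apart, and median distances were 82908 (kept to kept), 110154.5 (gained to kept), 97263.5 (lost to kept), 88636 (gained to gained) and 933558 bp (lost to lost). GATA2 overlapped 73.0% of kept regions in WT, 82.4% of kept and 63.2% of gained regions in Q592*. SMC3 overlapped 25.4% of kept and 25.1% of lost regions in WT, and 13.1% of kept and 10.2% of gained regions in Q592*. These lists hold fewer peaks by construction.

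With lists of equal length, shortened to the strongest peaks, 3045 regions were gained and 3020 lost, near-equal by construction. The nearest Q592* summit lay at 41621 bp, and median distances were 59899 (kept to kept), 85441 (gained to kept), 61890.5 (lost to kept), 154338 (gained to gained) and 100916 bp (lost to lost). GATA2 overlapped 67.0% of lost regions in WT, 81.2% of kept and 55.5% of gained regions in Q592*. SMC3 overlapped 33.9% of kept and 24.2% of lost regions in WT, and 33.8% of kept regions in Q592*.

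With summits within 200 bp in place of overlap, GATA2 was at 74.9% of kept and 54.9% of lost regions in WT and 81.0% of kept and 60.6% of gained regions in Q592*. SMC3 was at 47.8% and 34.2% in WT and 28.7% and 16.9% in Q592*. Stitching at 5000 bp gave 265 clusters with 5.35% of kept, 4.08% of gained and 11.8% of lost regions, and at 25000 bp 1237 clusters with 29.4%, 24.2% and 39.5%. Without chromosome 13 the lost to lost distance was 199053 bp, and without its segment from 75 to 100 Mb, an alternative chosen after seeing the data, 203117 bp. Windows of 2 Mb with more lost than gained regions made up 6.77% of 251, against 2.90% of the 5 Mb windows. A reciprocal overlap of 50%, the sex chromosomes and leaving out a local background of 10 or more (also chosen after seeing the data) moved none of the values they were applied to beyond these bounds.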
